A study of Mus musculus with 7 samples.

Results

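The chromatin of 8 adrenergic receptor genes, Adra1a, Adra1b, Adra1d, Adra2a, Adra2b, Adra2c, Adrb1 and Adrb3, was examined in alpha, beta and delta cells of the mouse islet. These are 8 of the 21938 protein-coding genes of the GENCODE vM21 annotation on mm10. A locus was set as the gene body with 20 kb on each side, and every ATAC-Seq peak that overlapped it was counted as a member. ATAC-Seq marks open chromatin as the places where the Tn5 transposase can cut. Peaks of the 7 libraries that overlapped were merged into 834695 regions, of which 190 lay in the 8 loci. Of the 133698 regions called in at least 2 libraries, 42 lay there.

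Adrenergic receptors are G protein-coupled receptors for adrenaline and noradrenaline. The Adra1 receptors couple mainly to Gq and phospholipase C, the Adra2 receptors to Gi, which lowers cyclic AMP, and the Adrb receptors to Gs, which raises it. In the islet, sympathetic input is known to restrain insulin release, largely through the Adra2a receptor of beta cells, and to promote glucagon release.

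Cells were sorted by fluorescence from healthy triple transgenic mice that carried mIns1-H2b-mCherry and Rosa-LSL-YFP with either Sst-Cre or Gcg-Cre. The Ins1 promoter marked beta cells red, and Cre under the somatostatin or glucagon promoter turned on YFP in delta or alpha cells. Animals were pooled by sex, so a library is a pool of mice. In the paper's numbering, alpha 1, beta 2 and delta 1 were female, and alpha 2, beta 1, beta 3 and delta 2 were male. If the labels follow that numbering, replicates of each cell type differ in sex. Sex and replicate then cannot be told apart within alpha or delta cells, and sex was not tested. The labels give 2 alpha, 3 beta and 2 delta replicates. By this marking, alpha cells came from Gcg-Cre mice and delta cells from Sst-Cre mice. The labels do not say which line gave each beta library. There was no treatment, and an age was not given in the sources used here.

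The lists differed in length and strength. They held between 75860 and 518503 peaks, and a −log10 q of 2, a stricter threshold used beside the full lists, was reached by 5.0% of the peaks in beta 1 and by up to 54.9% in the other lists. Beta 1 had the longest list, and 378630 of its peaks (73.0%) shared the same weak −log10 p of 2.26 and a fold enrichment of 1.80 over local background. Of its 97 peaks in the receptor loci, 74 belonged to that block. Levels were therefore compared by the rank of a peak in its own list, where rank 1 has the lowest p and tied peaks share their mean rank, and by peak numbers within the 50000 peaks of lowest p, where a block of ties cut by that limit counts in part. The 3 beta lists are named for a cell type that differs from their GEO labels. Labels were used throughout, so each beta value rests on them. The file names also give a sequencing lane, 6 for alpha 1, alpha 2 and beta 1 and 7 for the others. Lane, mouse line and cell type therefore cannot be told apart between alpha and delta cells.

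The labels were set against markers, scored as a peak at most 1 kb from the 5′ end. Gcg (glucagon) had one in 2 of 2 alpha, 0 of 3 beta and 1 of 2 delta libraries, and Sst (somatostatin) in 0 of 2 alpha, 1 of 3 beta and 2 of 2 delta libraries. Ins2 (insulin) had one in only 1 of 3 beta libraries and in none of the others. Ins1, the other insulin gene, whose promoter the red reporter also carries, had one in 7 libraries. It ranked 103285 and 52260 in alpha, 6974, 53088 and 13850 in beta, and 35978 and 65284 in delta libraries. Of 7 beta markers, 5 were open in at least 2 replicates of alpha, of beta and of delta cells alike. All 5 alpha markers were open in at least 2 alpha replicates, 2 in beta and 4 in delta cells, and of 4 delta markers 3, 0 and 4 were. Gcg kept its libraries at a −log10 q of 2, where Sst was open in 1 beta library and in no delta library, and Ins2 in none. Ins1 was open there in 0 of 2 alpha, 2 of 3 beta and 1 of 2 delta libraries. Of markers of other cells, 3 of 5 acinar, 2 of 3 duct, 3 of 4 endothelial and 2 of 4 immune ones had a 5′ peak in at least 1 library, among them Ptf1a in 2 of 2 alpha libraries and Prss2 in 2 of 3 beta libraries and 1 delta library. Only Kdr of these did at a −log10 q of 2, in 1 delta library.

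The receptor genes had few accessible 5′ ends, taken here as the outermost annotated start of each gene. No receptor had a peak at most 1 kb from its 5′ end in 6 or 7 libraries, whereas 41.5% of all protein-coding genes had one in all 7 and 17.3% in none. Adra2c and Adrb3 had none in any library. Adra1a, Adra1b and Adra2a had a peak there in 3 libraries each, Adra2b and Adrb1 in 4, and Adra1d in 5. Of the 8 receptors, 4 kept a 5′ peak at a −log10 q of 2, Adra1a, Adra1d, Adra2b and Adrb1, each in 1 library. At that threshold 31.1% of all protein-coding genes had one in all 7 libraries, 5.22% in 1 and 38.1% in none. The counts depend on the start and window used. With any annotated start in the full lists, Adra1b had a peak in 7 libraries, Adra2a in 5, Adra1a in 4 and Adrb3 in 2, and the others did not change. With a window of 3 kb, Adra2a had a peak in 6 libraries, Adra1a in 5, Adra1b in 4, Adra2c in 2 and Adrb3 in 1, and the others did not change.

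**Figure D1:**
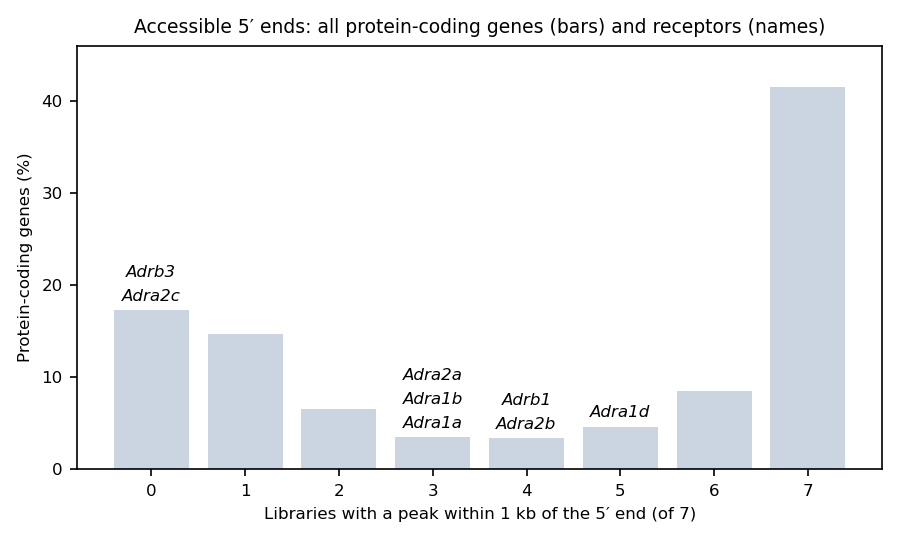
Share of protein-coding genes (bars, %) by the number of libraries, of 7, with a peak at most 1 kb from the 5′ end, with the 8 receptor genes named above the bar they belong to. Receptors sit at 0 libraries, where 17.3% of genes lie, or between 3 and 5, where few genes lie, and none at 6 or 7. The 5′ end is the outermost annotated start, and with any annotated start Adra1b had a peak in 7 libraries.

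Within a cell type, 3 receptors had a 5′ peak in at least 2 alpha replicates, Adra1b, Adra1d and Adra2b, against 56.8% of all protein-coding genes. In beta cells there were 4, Adra1a, Adra1d, Adra2b and Adrb1, against 56.1%. In delta cells there was 1, Adra2a, against 54.1%. All 4 beta receptors were called in beta 1 and beta 3 and in neither case in beta 2, so none was left without beta 1 or without beta 3. Of the 5 beta 1 peaks at these 4 genes, 4 were in the block of weakest peaks. No receptor met the condition in any cell type at a −log10 q of 2, where 51.5%, 41.4% and 48.4% of all genes did in alpha, beta and delta cells, or among the first 50000 peaks.

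The DNA of these 5′ ends differed in CpG content, which in mammals marks most broadly active promoters. Over 500 bp on each side of the 5′ end, a gene was called CpG-rich with at least 50% GC and a ratio of observed to expected CpG of at least 0.6. Among the 9740 CpG-rich genes 73.1% had a 5′ peak in all 7 libraries and 0.975% in none, and among the 12198 others 16.4% and 30.3%. Adrb1 (ratio 0.845), Adra1d (0.816) and Adra2b (0.745) were CpG-rich and were open in 4, 5 and 4 libraries. Of all CpG-rich genes, 14.8% were open in 5 libraries or fewer. Adra1a, at 0.597, lay just under the limit, and 3 of its other annotated starts, 58, 80 and 90 bp inside the gene, lay just over it at 0.624, 0.651 and 0.656. Adra2a (0.418), Adrb3 (0.308), Adra1b (0.305) and Adra2c (0.263) were below it. A start further inside the gene was CpG-rich in Adra1b, with a ratio of 0.671 and a peak in 7 libraries, and in Adra2a, with a ratio of 0.724 and a peak in 5. With any annotated start counted, 6 of the 8 receptors were CpG-rich, against 51.2% of all genes. These limits were chosen after the peak values had been seen.

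**Figure D2:**
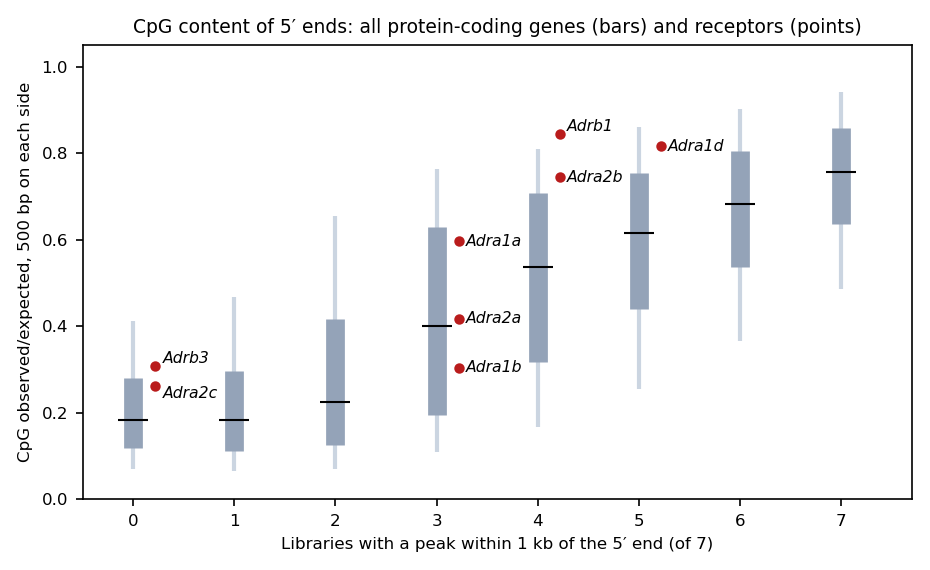
Ratio of observed to expected CpG over 500 bp on each side of the 5′ end (vertical axis) by the number of libraries with a 5′ peak. For all protein-coding genes the black dash is the median, the thick bar the range from the lower to the upper quartile and the thin bar the range from the tenth to the ninetieth percentile. Red points are the receptors, with Adrb1, Adra1d and Adra2b highest.

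Among the receptors that couple to Gq, Adra1b had the most peaks, 85 over the 7 libraries, in a locus of 166.6 kb. Per length its locus did not stand out from that of Adra1d, with 5.1 against 5.67 peaks per 10 kb over the 7 libraries, and 1.74 against 1.77 at a −log10 q of 2. Adra1b (ENSMUSG00000050541, chr11:43774606-43901210, − strand) is a long gene with a first exon at its 5′ end and an internal transcript start 64878 bp further along. Its locus held 14 and 12 peaks in alpha 1 and 2, 27, 6 and 7 in beta 1, 2 and 3, and 14 and 5 in delta 1 and 2. At a −log10 q of 2 it held 6 and 6 in alpha, 2, 3 and 4 in beta, and 5 and 3 in delta libraries. Both alpha libraries then lay above every beta and every delta library.

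Of its 11 regions called in at least 2 libraries, 3 were called in all 7. They are printed because they were the constant open chromatin around this receptor, and capitals mark matches to the motifs searched. No 2 matches in the sequences printed here overlap.
Adra1b 18.5 kb upstream (chr11:43919559-43919858, + strand): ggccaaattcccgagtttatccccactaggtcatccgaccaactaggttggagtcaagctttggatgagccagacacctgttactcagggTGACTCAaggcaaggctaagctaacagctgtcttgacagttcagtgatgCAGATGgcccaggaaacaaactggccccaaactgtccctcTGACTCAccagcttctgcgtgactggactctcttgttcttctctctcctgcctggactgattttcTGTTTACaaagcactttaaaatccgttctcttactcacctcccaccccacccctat
Adra1b before the internal start (chr11:43836490-43836739, − strand): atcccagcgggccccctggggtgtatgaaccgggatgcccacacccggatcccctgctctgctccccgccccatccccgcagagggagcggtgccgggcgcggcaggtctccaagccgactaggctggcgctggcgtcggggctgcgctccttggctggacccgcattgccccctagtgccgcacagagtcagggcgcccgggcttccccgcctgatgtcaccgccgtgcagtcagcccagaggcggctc
Adra1b past the 3′ end (chr11:43766884-43767183, + strand): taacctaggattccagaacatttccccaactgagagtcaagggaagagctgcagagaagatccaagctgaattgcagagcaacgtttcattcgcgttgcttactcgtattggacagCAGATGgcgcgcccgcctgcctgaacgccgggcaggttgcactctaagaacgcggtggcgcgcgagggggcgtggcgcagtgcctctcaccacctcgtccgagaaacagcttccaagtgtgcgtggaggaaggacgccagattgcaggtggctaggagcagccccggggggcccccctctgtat

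The first is an intergenic region, chr11:43919412-43920271, 18.5 kb upstream of the 5′ end. It ranked 4424 and 3583 in alpha 1 and 2, 13807, 9052 and 4900 in beta 1, 2 and 3, and 3131 and 2994 in delta 1 and 2. By rank the cell types did not overlap, with delta cells strongest and beta cells weakest, but this order was not kept as a share of the list. There the region stood at 3.37% and 3.2% of the list in alpha, 2.66%, 9.94% and 4.71% in beta and 1.98% and 3.95% in delta libraries, and all pairs of cell types overlapped. The alpha mean lay 1.09 lower than the beta mean and 0.38 higher than the delta mean on the log2 rank scale, with an unadjusted p of 0.105 and an adjusted p of 0.484 in the exact permutation test. Its 300 bases around the summit hold the AP-1 motif TGANTCA at 2 places, the NEUROD1 E-box CAGATG and the FOXA motif TGTTTAC. Over all 133698 regions, each read over 300 bases around its summit, 17.4% hold the first, 25% the second and 6.70% the third.

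The second region, chr11:43836199-43836747, covers the internal start, and the RefSeq promoter table also lists a start in it. The table places its own start further upstream, inside the same region, and the 250 bases printed end at the start of the table and are read on the strand of the gene. They hold 22 CpG and none of the 9 motifs searched. The region ranked 7928 and 8794 in alpha, 47254, 18730 and 33806 in beta, and 12336 and 8702 in delta libraries. Every beta library ranked it below every alpha and every delta library. As a share of the list every beta library still lay below both alpha libraries, at 9.11%, 20.6% and 32.5% against 6.04% and 7.85%, but beta and delta libraries, the latter at 7.8% and 11.5%, overlapped. The alpha mean was 1.89 lower than the beta mean on the log2 rank scale, and the beta mean 1.58 higher than the delta mean, with an exact permutation p of 0.0857 and an adjusted p of 0.478. In beta 1 it fell short of a −log10 q of 2, which the other 6 libraries reached.

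The third region, chr11:43766631-43767460, is intergenic and lies past the 3′ end. It ranked 10464 and 8140 in alpha, 10034, 13690 and 9186 in beta, and 4258 and 12536 in delta libraries, and the groups overlapped. Its summit window holds 21 CpG and the NEUROD1 E-box.

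The 5′ end of Adra1b itself was much weaker. The region chr11:43901292-43901582 was called in alpha 1, at rank 75506, and alpha 2, at rank 71012, and in no beta or delta library. It was thus open in alpha cells alone by the rule of at least 2 replicates against none, but in neither library at a −log10 q of 2. A beta 1 peak from the weakest block lay 959 bp inside the gene.

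Adra1a (ENSMUSG00000045875, chr14:66635251-66771168, + strand) had the lowest p of the 8 loci in the comparison of peak numbers. Within the first 50000 peaks its locus held 4.99 and 3.0 peaks in alpha 1 and 2, 2.33, 1.87 and 1.29 in beta 1, 2 and 3, and 0.167 and 1.56 in delta 1 and 2. Every alpha library was above every beta and delta library. The means were 4.0 ± 1.41 (SD, n = 2), 1.83 ± 0.519 (n = 3) and 0.862 ± 0.982 (n = 2). The exact permutation test over all libraries gave an unadjusted p of 0.0286 and an adjusted p of 0.555.

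The alpha libraries did not share these peaks. At a −log10 q of 2, alpha 1 had 5 peaks and alpha 2 had 3, at different regions. The strongest Adra1a region, chr14:66696676-66696904, in an intron 61.5 kb from the 5′ end, ranked 4350 in alpha 1, with a fold enrichment of 15.1, was absent from alpha 2, and was listed in beta 1 at rank 47254. Of the 5000 strongest peaks of alpha 1, 2.30% had no peak in alpha 2. At the 5′ end, alpha 2 alone reached a −log10 q of 2, at rank 37305, and the beta 1 and beta 3 peaks there ranked 269106 and 93800.

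The Adra1a region shared most widely is intronic, chr14:66654748-66655175, 19.7 kb from the 5′ end. It was called in all libraries except beta 3, at ranks 75506 and 21306 in alpha 1 and 2, 269106 and 42068 in beta 1 and 2, and 98267 and 12678 in delta 1 and 2. The replicates of each cell type lay far apart, and the groups overlapped. Its sequence is shown because it was the open region that most libraries shared inside this gene.
Adra1a first part of the gene body (chr14:66654764-66655063, + strand): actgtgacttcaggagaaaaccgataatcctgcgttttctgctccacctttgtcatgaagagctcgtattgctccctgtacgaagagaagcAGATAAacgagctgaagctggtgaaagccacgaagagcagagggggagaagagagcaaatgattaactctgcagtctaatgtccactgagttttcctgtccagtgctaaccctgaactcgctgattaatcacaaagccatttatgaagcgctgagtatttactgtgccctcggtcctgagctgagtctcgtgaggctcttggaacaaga

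A second Adra1a intron region, chr14:66679970-66680266, was called in beta 1 and beta 2 alone, at ranks 47254 and 42068, and in no library at a −log10 q of 2. It was 1 of the regions open in beta cells against both other cell types. The GATA motif AGATAA in the printed sequence is held by 15.0% of all regions of that length.

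Adra1d (ENSMUSG00000027335, chr2:131545850-131562283, − strand) had small peaks at a CpG-rich 5′ end, at different places in different cell types. Alpha 1 and alpha 2 had a summit 261 and 234 bp upstream, beta 3 and beta 1 a summit 26 and 114 bp downstream, and delta 1 a summit 519 bp upstream. These 3 intervals do not overlap, so the alpha interval and the beta interval each counted as selective against both other cell types. They lie within 1 kb of each other, and 1 of the 5 peaks, that of delta 1, reached a −log10 q of 2. Beta 2 had no peak in the whole locus.

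The strongest Adra1d region lies past the 3′ end, chr2:131538283-131538771. It ranked 9952 and 23652 in alpha 1 and 2 and 27001 and 21152 in delta 1 and 2, each at a −log10 q over 2. Among beta libraries it was called only in beta 1, at rank 269106 in the block of weakest peaks. At a −log10 q of 2 it was the 1 region of the 8 loci open in at least 2 alpha replicates and no beta replicate, and also the 1 open in at least 2 delta replicates and no beta replicate. It is shown for that reason, and its capitals mark the MAF site TGCTGAC, held by 6.55% of all regions.
Adra1d past the 3′ end (chr2:131538383-131538682, + strand): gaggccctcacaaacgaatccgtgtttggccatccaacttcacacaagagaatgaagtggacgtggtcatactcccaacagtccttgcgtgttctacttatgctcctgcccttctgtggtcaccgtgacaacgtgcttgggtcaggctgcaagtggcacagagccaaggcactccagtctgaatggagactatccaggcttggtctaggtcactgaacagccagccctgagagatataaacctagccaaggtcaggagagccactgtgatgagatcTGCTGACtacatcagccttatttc

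The 3 Adra1 genes had a common direction between alpha and beta cells. In each, both alpha libraries held more of the first 50000 peaks than any beta library, with 3.0 and 2.0 against 0.582, 0 and 1.29 at Adra1d and 6.0 and 6.0 against 3.16, 3.94 and 4.88 at Adra1b. Within lane 6 there is 1 beta library, beta 1, with 2.33, 3.16 and 0.582 at Adra1a, Adra1b and Adra1d, which allows no test. Per 100000 peaks of the full lists, alpha and beta libraries overlapped at Adra1d, at 6.10 and 3.57 against 1.74, 0 and 3.85, but not at Adra1a or Adra1b. At Adrb3 the beta libraries were higher, with 4.58, 5.74 and 4.29 against 4 and 4 in alpha cells. That excess came from tied peaks counted in part. At a −log10 q of 2 the Adrb3 locus held 4, 2 and 4 peaks in beta and 4 and 4 in alpha libraries. Per 100000 peaks alpha and beta libraries overlapped there, at 5.34 and 7.15 against 2.51, 9.88 and 5.77. With Adrb3 counted, 4 of the 8 receptors did not overlap within the first 50000 peaks, against 24.9% of all gene loci. At a −log10 q of 2 the same 3 Adra1 genes did not overlap, of 6 receptors that could be compared, against 30.2% of all loci. The alpha lists hold more peaks at that threshold, 52057 and 49047 against 25903 to 38058 in beta cells, and 29.3% of all loci were higher in alpha cells in this way. In the paper's read totals, both alpha libraries had more uniquely mapped reads than any beta library it kept. Read depth and cell type therefore cannot be told apart here, and the part of depth in this direction was not tested.

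**Figure D3:**
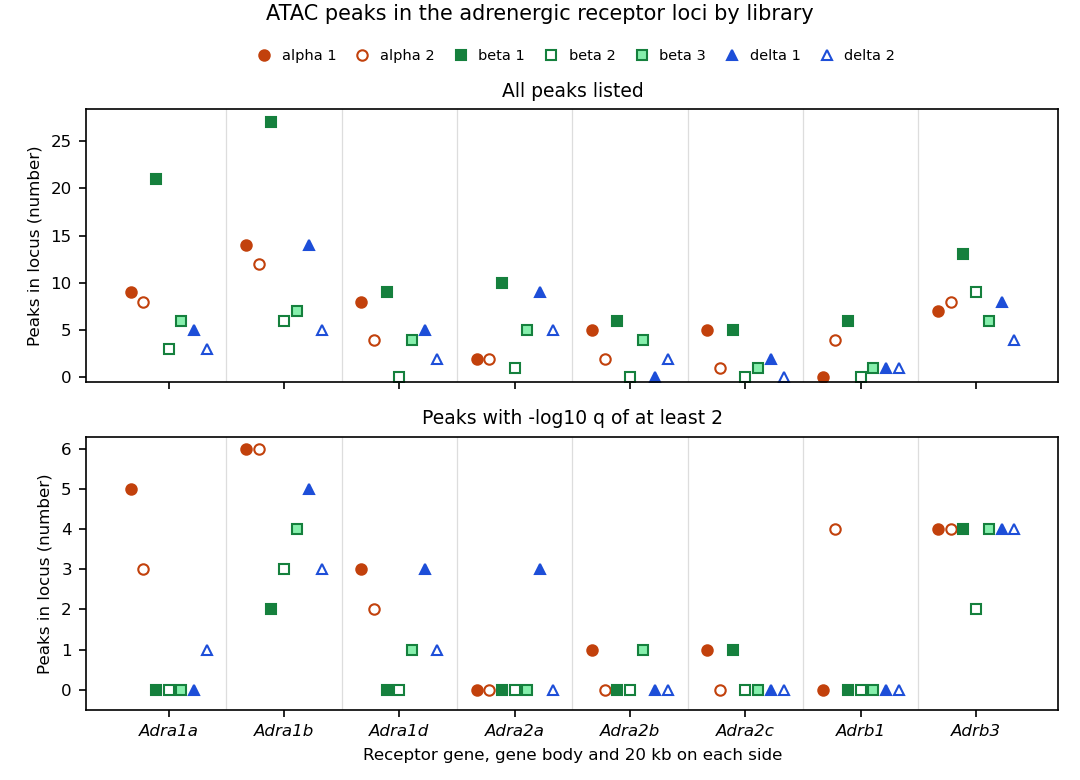
Number of peaks in each receptor locus in each library, in the full lists (top) and at a −log10 q of at least 2 (bottom). Circles are alpha, squares beta and triangles delta libraries. In the lower panel both alpha libraries lie above every beta library at Adra1a, Adra1b and Adra1d.

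Among the receptors that couple to Gi, Adra2a (ENSMUSG00000033717, chr19:54044151-54048982, + strand) was the only one whose 5′ end was open in both delta libraries. The region chr19:54044842-54045486 covers the second annotated start, 1109 bp inside the first. It was called in beta 1 and beta 2 at ranks 25970 and 79737 and in delta 1 and delta 2 at ranks 64754 and 65470, and in beta 3 and both alpha libraries not at all. It counted as open in beta and in delta cells against alpha cells. Outside this region but within 1 kb of the second start, alpha 1 also had a peak, so this selectivity depends on where the intervals end. None of the 4 peaks of the region reached a −log10 q of 2, the nearest being beta 1 at 1.97.

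Upstream of Adra2a, the intergenic region chr19:54040218-54040697 was called in every library except beta 2. It ranked 75506 and 49998 in alpha 1 and 2, 28700 and 56848 in beta 1 and 3, and 34844 and 60952 in delta 1 and 2, and the groups overlapped. Only delta 1 reached a −log10 q of 2 there. The printed summit window holds the AP-1 motif, the homeobox motif TAATTA, held by 8.19% of all regions, and the GATA motif on the other strand.
Adra2a 3.65 kb upstream (chr19:54040355-54040654, + strand): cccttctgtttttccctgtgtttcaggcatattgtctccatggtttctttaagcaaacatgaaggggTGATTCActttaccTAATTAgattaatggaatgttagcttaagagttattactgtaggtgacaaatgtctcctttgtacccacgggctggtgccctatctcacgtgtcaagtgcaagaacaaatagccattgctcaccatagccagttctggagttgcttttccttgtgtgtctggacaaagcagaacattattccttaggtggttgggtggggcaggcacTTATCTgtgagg

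The Adra2a region with the lowest p, chr19:54034927-54035417, 9.03 kb upstream, was open in both delta libraries, at ranks 32073 and 69326, and in no alpha library, with a beta 3 peak at rank 93800. Over the whole Adra2a locus there were 2 and 2 peaks in alpha, 10, 1 and 5 in beta, and 9 and 5 in delta libraries. In the full lists both delta libraries were above both alpha libraries, while beta libraries spanned the other groups. Within the first 50000 peaks the means were 0.252 ± 0.357 (SD, n = 2) in alpha, 0.764 ± 1.08 (n = 3) in beta and 1.58 ± 2.24 (n = 2) in delta cells, with an exact permutation p of 0.771 and an adjusted p of 0.962. Without the delta 1 library, no peak of this locus reached a −log10 q of 2.

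Adra2b (ENSMUSG00000058620, chr2:127363208-127367221, + strand) had peaks 553 and 53 bp upstream of its 5′ end in alpha 1 and alpha 2 and 635 and 27 bp upstream in beta 1 and beta 3. The pairs formed 2 regions, each of 1 alpha and 1 beta library, so neither was shared by replicates of a cell type. No delta library had a peak there, and delta 1 and beta 2 had none in the whole locus. Of these 5′ peaks only that of alpha 1, at rank 45078, reached a −log10 q of 2. The strongest peak of the locus, chr2:127355624-127355824, lay 7.49 kb upstream in an intron of the neighbouring gene and was called in beta 3 alone, at rank 29323.

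Adra2c (ENSMUSG00000045318, chr5:35278319-35281763, + strand) is a gene of a single exon and had no region that 2 libraries shared. Its 14 peaks fell on 14 separate regions, 5 of them from beta 1. The full lists held 5 and 1 peaks in alpha, 5, 0 and 1 in beta, and 2 and 0 in delta libraries. Nothing reached a −log10 q of 2 except 1 peak in alpha 1, at rank 28942 in the exon 3.17 kb from the 5′ end, and 1 in beta 1, 9.56 kb upstream.

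Among the receptors that couple to Gs, Adrb1 (ENSMUSG00000035283, chr19:56722199-56733113, + strand) had replicates that differed widely. Alpha 2 had 4 peaks in the locus, all at the CpG-rich 5′ part of the gene and all at a −log10 q of 2, while alpha 1 had 0 in the whole locus. The strongest ranked 29967 and lay 626 bp inside the gene. Beta 1, 2 and 3 had 6, 0 and 1 peaks and delta 1 and 2 had 1 and 1, none at a −log10 q of 2. The upstream region chr19:56721681-56722053 was called in 1 library of each cell type, alpha 2 at rank 39559, delta 2 at rank 49165 and beta 3 at rank 56848.

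The 250 bases before the RefSeq start of Adrb1 are printed because 3 libraries, of 3 cell types, had a peak over them. They hold 24 CpG and no match to the 9 motifs.
Adrb1 before the start (chr19:56721867-56722116, + strand): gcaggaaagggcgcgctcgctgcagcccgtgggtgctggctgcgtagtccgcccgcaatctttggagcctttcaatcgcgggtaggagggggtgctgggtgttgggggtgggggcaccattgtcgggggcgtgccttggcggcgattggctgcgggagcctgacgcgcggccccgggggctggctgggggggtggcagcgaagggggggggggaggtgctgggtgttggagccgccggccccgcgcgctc

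Adrb1 was the only receptor whose 5′ rank could be tested, since no other had a 5′ peak among the first 50000 in 2 libraries. The exact permutation p was 0.571 and the adjusted p 0.848, with 8.88% of the 12687 genes tested at an unadjusted p under 0.05. Over the 7 libraries, the genes whose 5′ rank was most like that of Adrb1 were Tmem101, Lgals4 and Rgs8, with Pearson's r of 1.00, 1.00 and 1.00. All rest on alpha 2, so the likeness describes that library.

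Adrb3 (ENSMUSG00000031489, chr8:27225776-27250616, − strand), a receptor best known from fat, had no 5′ peak in any library but an accessible neighbourhood. Its 4 other annotated starts lie 19792 to 22122 bp inside the gene, and beta 1 and delta 1 had a peak at most 1 kb from 2 of them. Its locus held 7 and 8 peaks in alpha, 13, 9 and 6 in beta, and 8 and 4 in delta libraries, and 4 at a −log10 q of 2 in each library except beta 2, with 2. Of its 7 regions of at least 2 libraries, 3 were called in all 7, and none of these lies in the gene.

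The strongest of them is at the 5′ end of Eif4ebp1, which encodes a repressor of translation initiation, chr8:27260046-27261698. It ranked 11148 and 15198 in alpha, 5553, 6936 and 6380 in beta, and 5222 and 5524 in delta libraries. The cell types did not overlap, and alpha cells were weakest, 1.06 higher in rank than beta and 1.28 higher than delta cells on the log2 scale. As a share of the list alpha libraries were also weakest, at 8.5% and 13.6% against 1.07%, 7.61% and 6.14% in beta and 3.3% and 7.28% in delta libraries. Its unadjusted p of 0.0190 in the exact permutation test was the lowest of the 6 regions, and its adjusted p was 0.374.

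Of these 3, the region nearest to the 5′ end of Adrb3, chr8:27253668-27254028, is intergenic, 3.28 kb upstream. It ranked 33356 and 44629 in alpha, 20340, 42068 and 11528 in beta, and 32073 and 33528 in delta libraries. The groups overlapped, with beta cells spanning the others, and 6 libraries reached a −log10 q of 2.

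The third lies in an intron of Got1l1, chr8:27206419-27207145, and was weaker, at ranks 35896 and 22951 in alpha, 47254, 86572 and 36966 in beta, and 45564 and 30340 in delta libraries. Both alpha libraries ranked it above every beta library, and delta libraries overlapped with both. As a share of the list alpha and beta libraries overlapped too. By that share alpha and delta libraries did not overlap, at 27.4% and 20.5% against 28.8% and 40%, with alpha cells stronger.

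**Figure D4:**
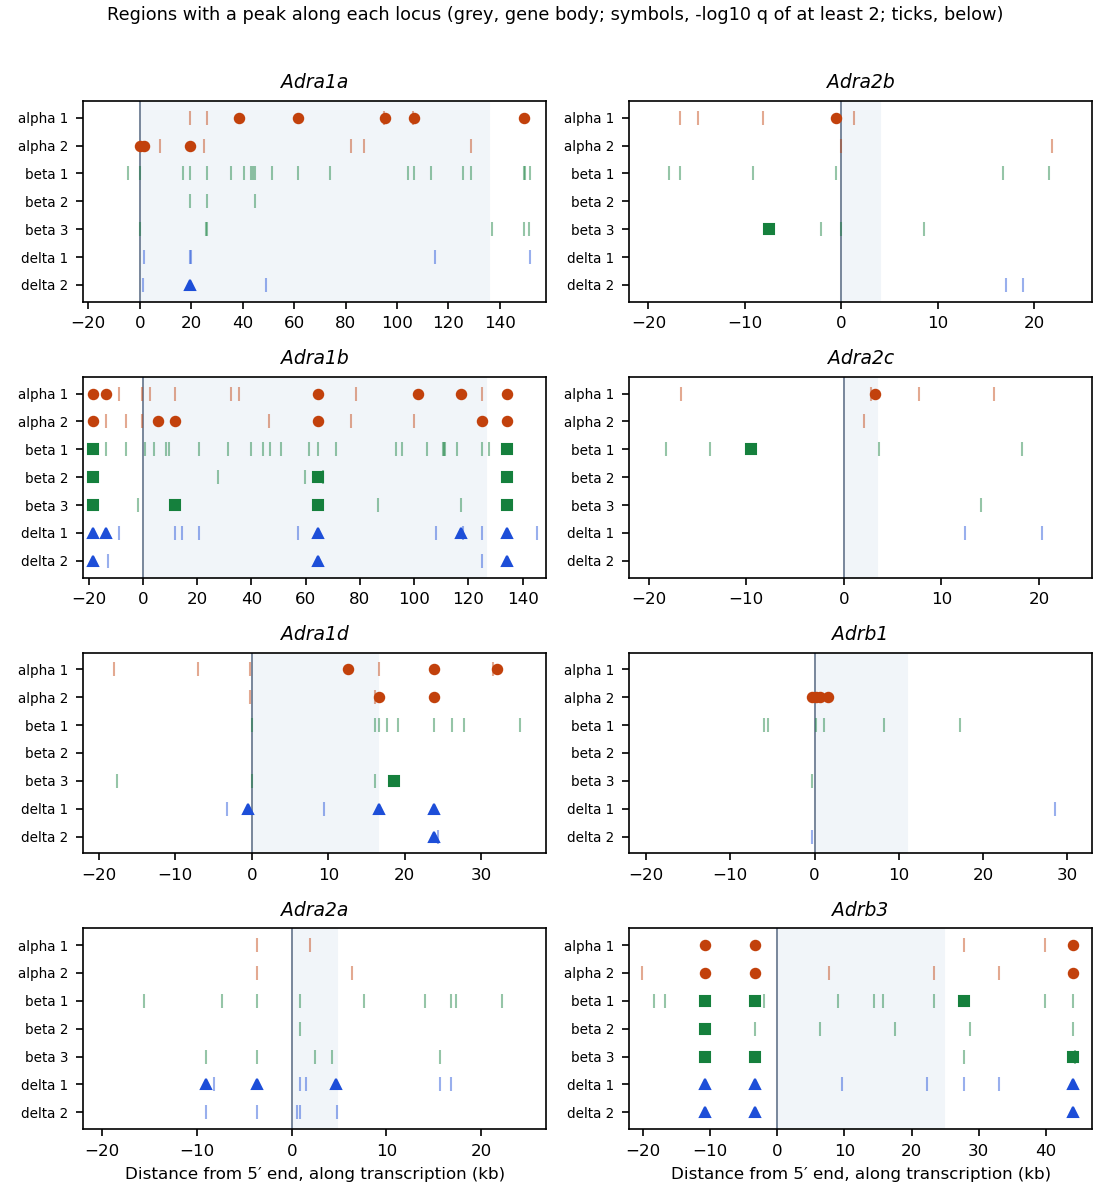
Regions along each receptor locus by distance from the 5′ end (horizontal axis, kb along transcription), 1 row per library. Symbols mark peaks at a −log10 q of at least 2, ticks weaker peaks, and grey the gene body. Symbols stand in all 7 rows at the Adra1b regions 18.5 kb upstream and past the 3′ end and at the Eif4ebp1 region of the Adrb3 panel, and the 4 symbols of Adrb1 stand in the alpha 2 row alone.

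Some receptor regions were shared by all libraries. Of the 42 receptor regions called in at least 2 libraries, 6 were called in all 7 (14.3%), against 13.3% of all 133698 such regions. All 6 belong to Adra1b and Adrb3. Ranks did not overlap between alpha and beta cells in 4 of the 6, against 35.2% of the 17759 regions called in all libraries. They did not overlap between alpha and delta cells in 2, against 47.2%, and between beta and delta cells in 3, against 30.5%. One region, at Eif4ebp1, had an unadjusted p under 0.05, against 11.6%. No adjusted p was under 0.05 here or over all 17759 regions, where the lowest was 0.374. With ranks taken as a share of the list, 2, 2 and 0 of the 6 did not overlap in the same order of pairs, against 23.2%, 34.0% and 14.4% of all such regions, and no region of the 6 had an unadjusted p under 0.05, against 3.21%.

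**Figure D5:**
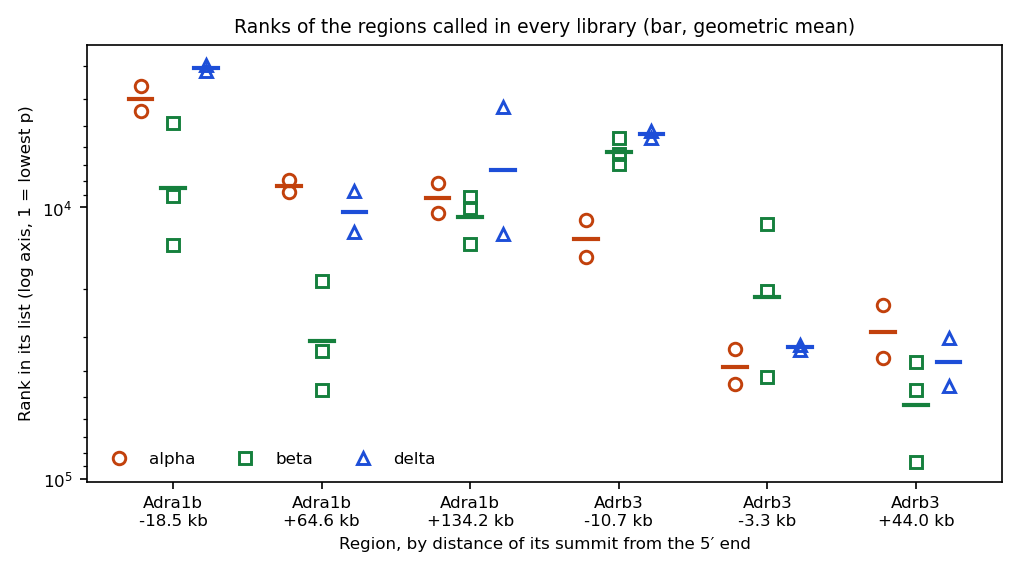
Rank in its own list (vertical log axis, 1 is the lowest p and stands at the top) of the 6 regions called in all 7 libraries. Points are libraries and bars geometric means of a cell type. Beta libraries stand below alpha and delta libraries at the Adra1b regions 18.5 kb upstream and at the internal start, which as a share of the list holds for alpha against beta libraries at the internal start alone, and alpha libraries lowest at the Eif4ebp1 region, labelled Adrb3 −10.7 kb.

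Regions open in 1 cell type of a pair and not in the other had shares near those of all regions in 4 of the 6 directions. Of the 42 regions, 2 (4.76%) were open in at least 2 alpha replicates and no beta replicate, against 5.41% of all regions, and 3 (7.14%) in beta and not alpha cells, against 14.8%. In alpha and not delta cells there were 2 (4.76%), against 5.38%, and in delta and not alpha cells 2 (4.76%), against 5.13%. In beta and not delta cells there were 6 (14.3%), against 13.2%, and in delta and not beta cells 0, against 4.85%. Of the 6, 3 lay at Adra1a or its introns, 2 at Adra1d, and 1 at the 5′ end of the neighbouring lincRNA gene Gm10032. The 5 regions between alpha and beta cells became 3 without beta 2, and the 6 between beta and delta cells became 3 without beta 1 or without beta 3. Without 1 alpha or delta library, where 1 replicate alone defines the cell type, counts rose to between 15 and 34. Shares of all regions with a library left out are not given here.

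Over all receptors, 8 of 8 loci could be tested for a difference in peak numbers between the cell types, and 1, Adra1a, had an unadjusted p under 0.05, against 7.88% of the 20779 loci tested. None had an adjusted p under 0.05, here or among all loci, where the lowest was 0.555. With 210 assignments the smallest p was 0.00952, so an adjusted p under 0.05 would have needed 19.0% of all loci at that value. Between pairs of cell types the smallest p is 0.1 with beta cells and 0.333 between alpha and delta cells. In 2 receptors, Adra1a and Adra1b, peak numbers did not overlap between alpha and delta cells, higher in alpha, against 26.1% of loci. Between beta and delta cells there was no such receptor, against 22.1%. Without alpha 2 the first number became 4 and without delta 2 it became 5. The second became 2, 3, 1 and 4 without beta 2, beta 3, delta 1 and delta 2. Shares of all loci with a library left out are not given here. At a −log10 q of 2 the counts were 2, again Adra1a and Adra1b, against 22.5%, and 0 against 20.9%.

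Most genes that act around the receptors had an accessible 5′ end. Of 9 genes for G protein alpha subunits, 8, 8 and 9 had a 5′ peak in at least 2 alpha, beta and delta replicates, beside 56.8%, 56.1% and 54.1% of all protein-coding genes. The exceptions were Gnas, the gene of the Gs subunit, which had one in 1 alpha, 2 beta and 2 delta libraries, and Gna14, in 2, 1 and 2. These counts score the outermost annotated start alone. They do not cover starts further inside a gene, so they do not describe every promoter of Gnas. Of 23 effectors, adenylyl cyclases, phospholipases C, kinases and channels among them, 19 were open in each cell type, and Plcb2 and Plcb3 had no 5′ peak in any library. Of 12 regulators, such as receptor kinases, arrestins and phosphodiesterases, 11, 11 and 10 were open. The counts at a −log10 q of 2 in alpha, beta and delta cells were 7, 7 and 7 G protein genes, 17, 10 and 17 effectors and 9, 6 and 8 regulators, beside 51.5%, 41.4% and 48.4% of all genes.

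Of 10 genes for catecholamine synthesis, transport and breakdown, 4, 5 and 4 were open, fewer as a share than the 56.8%, 56.1% and 54.1% of all genes. The vesicle transporter Slc18a1 and the degrading enzymes Maoa and Maob had a 5′ peak in all 7 libraries. The synthetic enzymes Th, Dbh and Pnmt, the noradrenaline transporter Slc6a2 and the vesicle transporter Slc18a2 had one in 1 library each. Over the 54 genes, 8 of 54 tested loci and 2 of 43 tested 5′ ends had an unadjusted p under 0.05, beside 7.88% of all 20779 loci and 8.88% of all 12687 5′ ends tested, and none an adjusted p under 0.05. The lowest p was at the adenylyl cyclase Adcy8, at 0.00952 for its locus, with an adjusted p of 0.555. Its 5′ end had a peak in 2 of 2 alpha, 2 of 3 beta and 2 of 2 delta libraries. It reached a −log10 q of 2 in 2 of 2 alpha, 0 of 3 beta and 2 of 2 delta libraries.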

How the data were processed

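ATAC-Seq peak lists of 7 libraries were used. Per the labels' processing notes, the authors used FastQC, Trimmomatic, Bowtie2, Picard and MACS2 on mm10, and single-end reads were called per library. The threshold of MACS2 is not given in the sources used here, and no list goes below a −log10 p of 2.01. The deposited columns hold the −log10 p and −log10 q of each peak, its fold enrichment (a ratio to local background), a score and the summit. The score was not used. Lists hold no reads. The study states read totals for each library. They are used here only to order alpha and beta libraries by depth, so no limit behind an absent peak was computed. The study's DiffBind test was not run.

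Rows that repeat an interval were counted once. Peaks were ranked by −log10 p, then fold enrichment. Ties took their mean rank and, at the limit of 50000 peaks, the share of the tied block that fits; this treatment, which the fixed design did not name, was added after the files were seen, as were the rank test of regions called in all 7 libraries, the CpG limits and the choice of sequences. GENCODE vM21 gave genes, the GRCm38.p6 genome and promoter table of RefSeq gave sequences, with 5 of the 8 receptors in that table. No peak lay past a chromosome end. An exact permutation test without direction, on the between-group sum of squares over all 210 ways to assign the libraries, compared the cell types, adjusted by Benjamini-Hochberg over all genes or regions tested. Replicates are pools of mice, and the labels do not say that equal numbers share animals. Regions were described if called in all 7 libraries, if selective against both other cell types, or if of the lowest p of a receptor. Further regions, those shared by 6 libraries among them, were chosen after their values were seen. The 9 motifs, searched on both strands, were the CRE, written TGACGTCA, those of NEUROD1, FOXA, MAF, homeobox, GATA and AP-1 factors, spelled out beside their matches, and those of RFX and CTCF. One gene of the lists is counted but not named, and the sequences at Adrb3 are not reported here. The receptors, gene lists and tests were chosen with earlier results of these data known. Python 3.11.15, numpy 2.4.6, pandas 2.3.3, pysam 0.24.0, samtools 1.23.1 and matplotlib 3.10.9 were used, and the code was tested on simulated data.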

Additional observations from a re-analysis of the deposited data

How the results depend on the processing

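No receptor had an adjusted p under 0.05 in the comparison of locus peak numbers under any setting run (all peaks per 100000, a −log10 q of at least 2, covered base pairs, no flank, a flank of 50 kb, a replicate block, each library left out), nor did the 5′ rank test or the rank test of regions called in all libraries. The 5′ rank test gave no value at a −log10 q of at least 2, since no receptor could be tested. Correlations between the deviations of same-numbered libraries lay between −0.0372 and 0.0385. With 2 or 3 replicates per cell type these values cannot decide whether libraries share animals. The paper describes the cell types as taken from the same animals. By the marking, alpha and delta cells came from different mouse lines, so alpha and delta libraries cannot share animals. Whether a beta library shares animals with an alpha or a delta library is not known here. The replicate block also swaps alpha and delta labels of the same number, so it does not model such sharing. With the replicate block the count of adjusted calls was 0 in all 3 tests, where the smallest p the block allows is 0.0556.

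Counts moved more. Receptors with a 5′ peak in at least 2 replicates became 0 for every cell type, both at a −log10 q of at least 2 and among the first 50000 peaks. Wider settings raised the beta count from 4 to 6, both with a window of 3 kb and with any transcript start. The delta count rose from 1 to 2 under both. The alpha count went from 3 to 4 with 3 kb and stayed at 3 with any start. Shares of all genes under these wider settings are not given here. With 1 library left out these receptor counts ranged from 3 to 5 in alpha, 0 to 4 in beta and 1 to 2 in delta cells. Selective regions between alpha and beta cells numbered 1 at a −log10 q of at least 2, 2 among the first 50000, 3 with no flank and 9 with a flank of 50 kb, and 3 to 31 with 1 library left out. Between alpha and delta cells they numbered 0, 0, 1 and 7 in that order, and 4 to 34 with 1 left out. Between beta and delta cells they numbered 1, 2 and 10 (strict, first 50000, 50 kb), and 3 to 28 with 1 left out. Receptors with non-overlapping peak numbers between alpha and beta cells were 2 with all peaks per 100000 and 2 with no flank, and 4 to 5 with 1 left out. Between alpha and delta cells they were 5 with all peaks per 100000 and 4 with 50 kb, and 2 to 5 with 1 left out. Between beta and delta cells they were 1 with all peaks per 100000, 1 with covered base pairs and 2 with 50 kb, and 0 to 4 with 1 left out. Shares of all regions or loci under these settings are not given beside these counts. The counts therefore show only how the numbers move, not whether the receptors differ from other genes. A flank of 50 kb takes in more neighbouring genes, and leaving out an alpha or delta library leaves 1 replicate to define that cell type. The causes of the other moves were not tested.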
